A study of Mus musculus with 16 samples.

Results

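The genes described here were TNF and 9 other ligands and receptors of the TNF superfamily, taken as a named list from a table of 53850 genes: the ligands Tnf, Tnfsf9, Tnfsf12 and Tnfsf13b and the receptors Tnfrsf1a, Tnfrsf1b, Tnfrsf11a, Tnfrsf17, Fas and Cd40. RNA was sequenced from microglia sorted by flow cytometry from the cortex of C57BL/6J mice, described as young in one label and adult in another, with no age in days in the sources used here. For 1 week, males and females ate control chow or chow that held PLX3397, which blocks the CSF1 receptor, a receptor microglia need to survive. The 16 libraries formed 4 groups of 4 (male control, male PLX3397, female control and female PLX3397), and the series asks how the response to the inhibitor differs by sex. The labels do not say that the 4 samples of a group came from separate animals, so p-values measure the spread between these samples, which may be technical. All 10 genes passed the filter on low values (a normalised read count of at least 10 in at least 4 libraries), as did 19594 genes in all.

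Ligands of the TNF superfamily are trimeric proteins made at the cell membrane, many of which are cut off to act at a distance, and their receptors gather adaptor proteins that lead to NF-kB activation, survival or cell death. In the brain, microglia are the main source of TNF. They also carry its receptors and RANK, the receptor for the osteoclast factor RANKL that works beside the CSF1 receptor in bone-resorbing cells of the same lineage.

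The promoters of Tnf, as the founding ligand, and of Tnfrsf11a and Tnfrsf17, the receptors that fell together in males, are shown as the 250 bases before each start site (RefSeq, build GRCm38.p6, 5′ to 3′ on the strand of the gene). Capitals mark matches to the motifs searched.
Tnf, chr17:35202008-35202257, minus strand: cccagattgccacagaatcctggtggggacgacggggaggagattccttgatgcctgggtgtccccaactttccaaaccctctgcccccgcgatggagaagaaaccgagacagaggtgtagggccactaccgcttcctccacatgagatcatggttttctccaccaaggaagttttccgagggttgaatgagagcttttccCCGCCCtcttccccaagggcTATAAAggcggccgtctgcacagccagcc
Tnfrsf11a, chr1:105780473-105780722, plus strand: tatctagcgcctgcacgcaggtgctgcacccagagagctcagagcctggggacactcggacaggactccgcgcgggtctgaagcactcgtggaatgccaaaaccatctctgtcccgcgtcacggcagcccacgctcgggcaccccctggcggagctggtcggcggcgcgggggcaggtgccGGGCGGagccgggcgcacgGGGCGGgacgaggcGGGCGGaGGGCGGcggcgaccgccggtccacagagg
Tnfrsf17, chr16:11313559-11313808, plus strand: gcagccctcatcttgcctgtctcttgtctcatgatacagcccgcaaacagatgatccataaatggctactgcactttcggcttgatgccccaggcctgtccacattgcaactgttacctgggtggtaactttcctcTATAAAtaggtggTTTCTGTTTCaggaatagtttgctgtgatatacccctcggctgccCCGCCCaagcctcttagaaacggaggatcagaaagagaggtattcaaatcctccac
In all, 5 motifs were searched on both strands, and no match overlapped one of another motif in these windows. TATAAA, the TATA box, was in 12.4% of 32851 promoters of the same length, and Tnf and Tnfrsf17 each held 1 copy. GGGCGG, a GC box, was in 32.7%, with 1 copy in Tnf, 1 in Tnfrsf17 and 4 in Tnfrsf11a. A motif of interferon regulatory factors (GAAA, any 2 bases, GAAA) was in 2.98%, with 1 copy in Tnfrsf17, read on the opposite strand. TGANTCA (AP-1, 6.75%) and the kappaB consensus (3.9%) had no match in these windows. The table held a promoter for 7 of the 10 genes, and Tnfsf9, Tnfsf12 and Cd40 were among those without an entry.

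The libraries summed to 32641505 to 44162201 normalised reads. Male control libraries held an estimated 42400000 to 78400000 reads and male PLX3397 libraries 29600000 to 38900000. Female control libraries held 29400000 to 38800000 and female PLX3397 libraries 22000000 (replicate 2) to 72000000 (replicate 1). These estimates are rough, as reads were not recovered. Male control replicate 4 had an Xist value of 516, against 14.7 to 31.4 in the other male libraries and 5542 to 10451 in females. Male PLX3397 replicate 3 had the highest level of the neutrophil transcript S100a9 (18393), which lay between 102 and 829 in male controls and at 0 in every female control. All 10 microglia markers were present, with sums of 2339032 to 2523339 in male controls, 1058145 to 1502356 in males on PLX3397, 2229218 to 2735184 in female controls and 1692434 to 1922730.4 in females on PLX3397. In normalised bulk RNA, a smaller share of cells of a type and less of its marker transcripts per cell cannot be told apart. Results are given with all libraries, and where a call among the 10 genes ended without this pair, male control replicate 4 together with male PLX3397 replicate 3, that is said.

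Divided by exon length (GENCODE M21), the mean level over the 16 libraries was highest for the TNF receptors, at 6349 normalised reads per kilobase for Tnfrsf1b and 3563 for Tnfrsf1a. Tnfrsf17 followed at 1186, Tnfrsf11a at 814 and Tnfsf12 at 539. Tnfsf13b (185) and Tnf (179) were close together, and Tnfsf9 (119), Cd40 (51.7) and Fas (37.9) were lowest. The receptors for TNF therefore stood far above TNF itself at the RNA level.

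**Figure D1:**
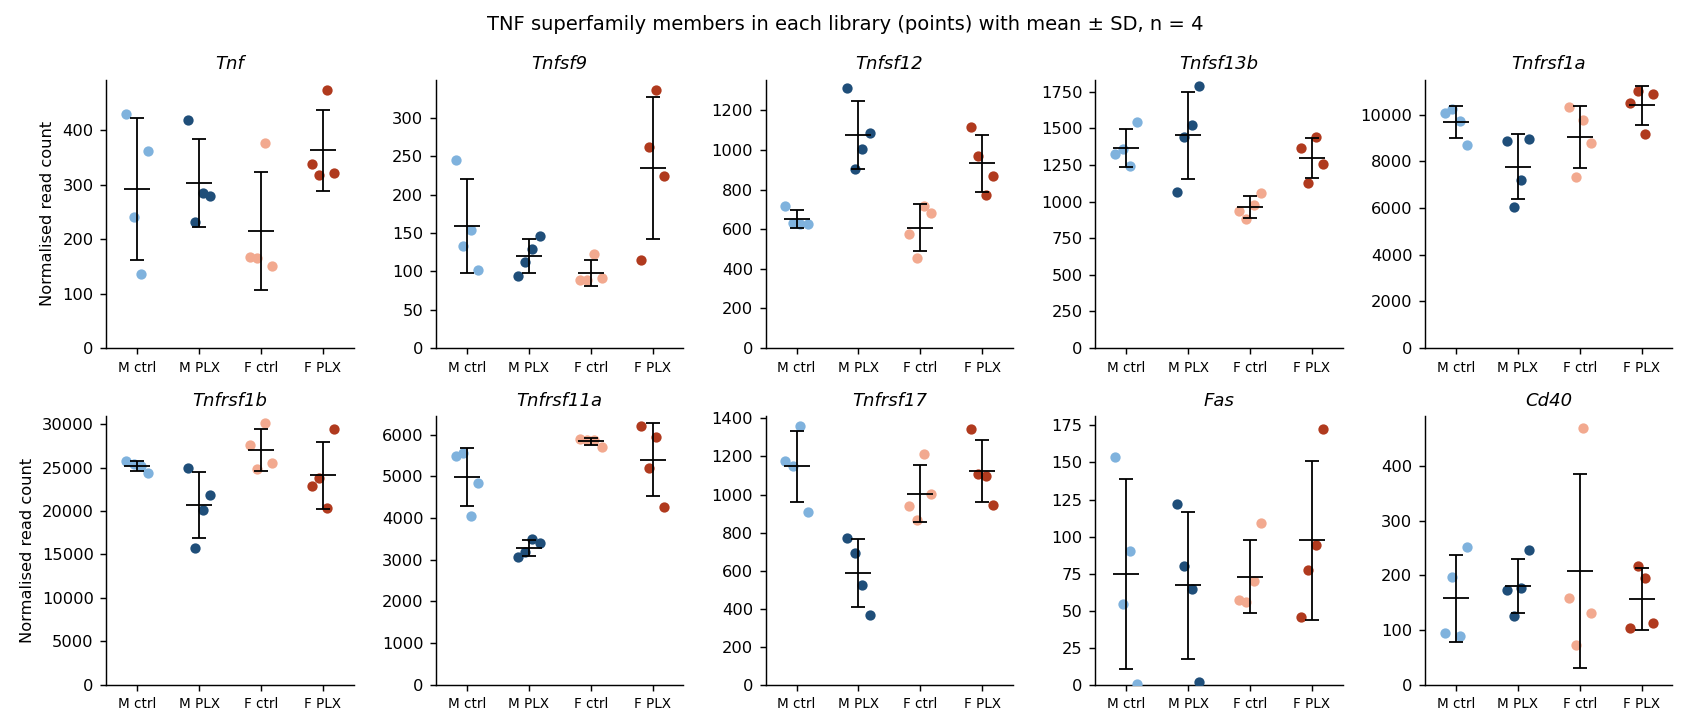
Normalised read count of each of the 10 genes in every library (points), with mean ± SD of the 4 libraries of a group (black), on linear axes from 0. Tnfrsf11a and Tnfrsf17 are low in males on PLX3397 alone among the 4 groups, at 3055 to 3483 and 369 to 771, and Tnfsf12 is higher on PLX3397 in both sexes.

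In males on PLX3397, 3 of the 10 genes passed the test: Tnfrsf11a and Tnfrsf17 fell and Tnfsf12 rose. This was read against 11.7% of all genes tested (limma with Benjamini-Hochberg adjusted p under 0.05 over 19594 genes), 4.16% higher and 7.52% lower. In females, 2 of 10 passed, Tnfsf12 and Tnfsf9, both higher, against 5.34% of all genes, 2.67% in each direction. Between the sexes on PLX3397, Tnfrsf11a and Tnfrsf17 were higher in females, against 5.43% of all genes, 4.28% in that direction. On control chow none of the 10 differed between the sexes by this test, in which 13 genes in all (0.0663%) were called, and 1 of the 10, Tnfsf13b, had an unadjusted p under 0.05, as had 5.19% of all genes. Over the 10 genes the median log2 change was -0.12 in males and 0.26 in females, beside 0.02 and -0.0032 over all genes tested. The balance of calls over all genes depended on scaling: in males it was 815 higher and 1474 lower as deposited, and 1348 higher and 917 lower with equal library totals. Between the sexes on PLX3397 it was 838 higher and 226 lower in females as deposited, and 196 higher and 375 lower with equal totals. The directions of the calls among the 10 genes were the same under each scaling tried.

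Tnf, the founding ligand, which activates NF-kB and can trigger cell death, passed no test. Its normalised read counts were 430.0, 241, 136 and 362 in male controls and 419, 231, 284 and 279 in males on PLX3397. In females they were 168, 165, 377 and 150.5 on control chow and 338, 318, 474 and 321 on PLX3397. Every male PLX3397 library lay within the range of the male controls, and in females 1 control library (replicate 3) lay above 3 of the 4 PLX3397 libraries. The log2 change was 0.15 ± 0.348 (SE) in males (95% interval -0.59 to 0.89, limma adjusted p = 0.852) and 0.84 ± 0.348 in females (0.10 to 1.58, adjusted p = 0.213, unadjusted p = 0.0278). The difference between these responses was 0.70 (-0.35 to 1.74, adjusted p = 0.673), so neither a like nor an unlike response of Tnf was shown.

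Tnfsf12 encodes TWEAK, a ligand that acts through the receptor Fn14, encoded by Tnfrsf12a. Its counts were 718, 633, 625 and 626 in male controls and 1312, 905, 1005 and 1085 in males on PLX3397. They were 576, 454, 716 and 682 in female controls and 1114, 972, 773 and 871 in females on PLX3397. Every PLX3397 library lay above every control library of its sex, where 17.6% of all genes in males and 10.4% in females had groups that did not overlap in either direction. The mean rose from 651 ± 45.2 to 1077 ± 173 (SD, n = 4) in males, a log2 change of 0.72 ± 0.168 (SE, limma adjusted p = 0.00956). In females it rose from 607 ± 118 to 932 ± 145, a change of 0.63 ± 0.168 (adjusted p = 0.0371). The responses of the sexes differed by -0.09 (-0.59 to 0.42, adjusted p = 0.935). Tnfsf12 was the gene of the 10 that passed in both sexes, and the order of its group means, female control, male control, female PLX3397, male PLX3397, had neighbours that overlapped within each chow only.

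The male call held without any 1 of the 16 libraries (adjusted p 0.00529 to 0.0338). The female call ended without female PLX3397 replicate 1 (adjusted p = 0.118), 2 (0.0916) or 4 (0.0523), without female control replicate 1 (0.0897) or 2 (0.111), without male control replicate 2 (0.0505), and without the pair of libraries that stood apart (0.0616), with Tnfsf12 higher on PLX3397 in each. Tnfsf12 shares 731 exon bases with the read-through gene Tnfsfm13 on the same strand, so reads could be split between their rows and the value of Tnfsf12 alone is uncertain. Tnfsfm13 had 394, 211, 86.5 and 227 in male controls and 565, 654, 659 and 698 in males on PLX3397, and rose by 1.67 ± 0.322 (adjusted p = 0.00234). In females its mean was 232 ± 35.4 on control chow and 530.3 ± 105 on PLX3397, a rise of 1.18 ± 0.322 (adjusted p = 0.0417). Summed with Tnfsf12 and with Tnfsf13, which shares 983 exon bases with Tnfsfm13 and encodes APRIL, the 3 rows rose by 0.95 ± 0.153 in males (adjusted p = 0.000535) and 0.77 ± 0.153 in females (adjusted p = 0.00589). The sum was chosen after seeing the data.

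The receptor for TWEAK rose as well. Tnfrsf12a had 230.4, 241, 309 and 202 in male controls and 652, 505, 456 and 634 in males on PLX3397, and 222, 171, 287 and 408 in female controls and 1140.3, 1084, 857 and 620.2 in females on PLX3397. The groups of each sex did not overlap. Tnfrsf12a rose by 1.19 ± 0.258 in males (adjusted p = 0.00547) and by 1.80 ± 0.258 in females (adjusted p = 0.000408), and both calls held without any 1 library. Of the markers of astrocytes, oligodendrocytes, neurons and endothelial cells, 10 were tested. In males 1 rose (Mbp) and 1 fell (Pecam1), 20% beside 11.7% of all genes. In females 2 rose (Gfap and Mbp) and 1 fell (Pecam1), 30% beside 5.34% of all genes. The part of such RNA in the rise of Tnfrsf12a was not tested.

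**Figure D2:**
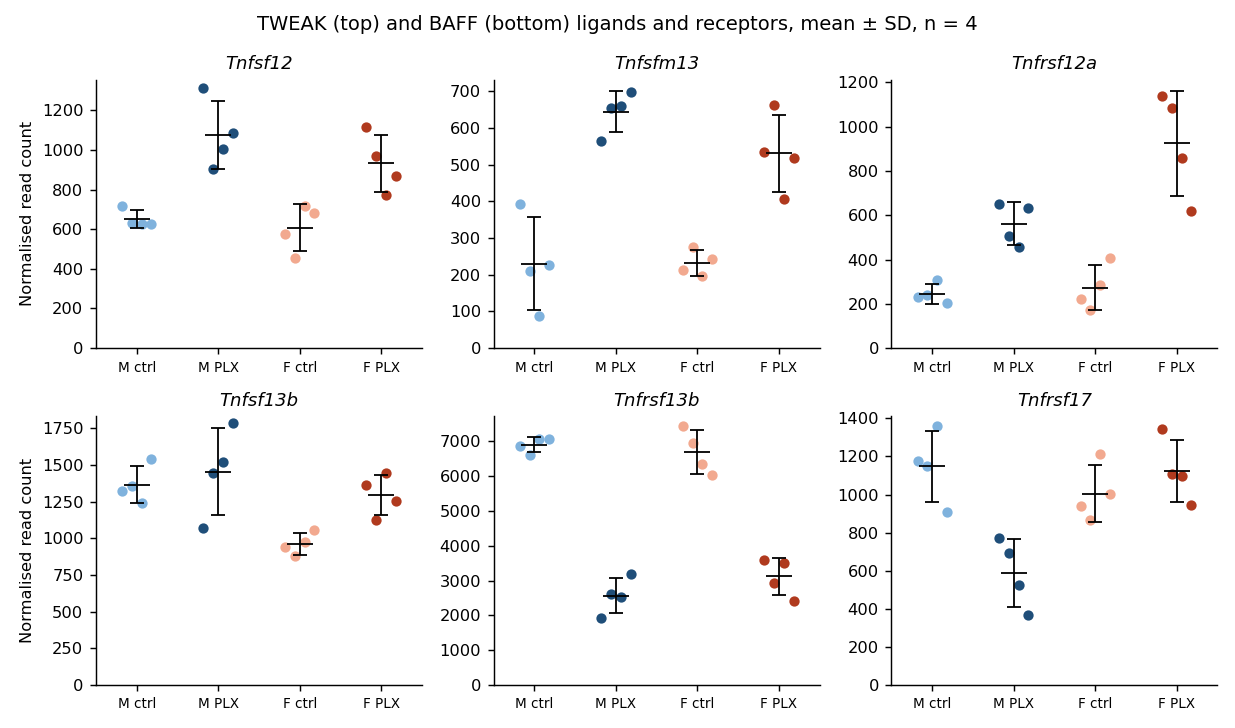
Normalised read count in every library (points) with mean ± SD, n = 4, on linear axes from 0, for the TWEAK ligand gene Tnfsf12, its read-through gene Tnfsfm13 and its receptor gene Tnfrsf12a (top), and for the BAFF ligand gene Tnfsf13b with the receptor genes Tnfrsf13b and Tnfrsf17 (bottom). The 3 genes of the top row are higher on PLX3397 in both sexes; Tnfrsf13b is lower on PLX3397 in both, and Tnfrsf17 is lower in males on PLX3397, at 369 to 771.

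Tnfsf9 encodes the ligand of 4-1BB, a costimulatory signal for T cells. Its counts were 245, 134, 154 and 102 in male controls and 93.5, 113, 129 and 146 in males on PLX3397, which overlapped. They were 89.4, 88.5, 123 and 91.8 in female controls and 116, 263, 337 and 225 in females on PLX3397, where replicate 1 on PLX3397 lay below the highest control. The log2 change was 1.16 ± 0.320 in females (limma adjusted p = 0.0434) and -0.34 ± 0.320 in males (adjusted p = 0.570). The difference between them was 1.51 ± 0.452 (0.55 to 2.47, unadjusted p = 0.0042, adjusted p = 0.278). The female call of Tnfsf9 ended without any 1 of 10 libraries: female PLX3397 replicate 2 (0.113), 3 (0.129) or 4 (0.0788), female control replicate 1 (0.101), 2 (0.0953) or 4 (0.0958), male PLX3397 replicate 2 (0.0545) or 3 (0.0551) and male control replicate 2 (0.0557) or 3 (0.0553), these being adjusted p-values with Tnfsf9 higher on PLX3397 in each. The call ended also with the replicate number as a block (0.0633) and without the pair of libraries that stood apart (0.0505). On PLX3397 the level in females was above that in males by 0.88 ± 0.320 (adjusted p = 0.122), which passed without female PLX3397 replicate 1 (1.18, 0.0341). Tnfrsf9, which encodes 4-1BB, did not exceed 17.1 in any library.

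Tnfsf13b encodes BAFF, a survival factor for B cells. Its counts were 1323, 1356, 1240.0 and 1543 in male controls and 1068, 1442, 1520.1 and 1786 in males on PLX3397. In females they were 938, 878, 978 and 1058 on control chow and 1363, 1127, 1443 and 1257 on PLX3397. Female controls lay below every library of the other 3 groups, which overlapped one another. None of these separations passed the test: the change in females was 0.43 ± 0.148 (limma adjusted p = 0.120), and female controls differed from male controls by -0.50 ± 0.148 (adjusted p = 0.787, unadjusted p = 0.0036). On control chow 3.55% of all genes had groups of the sexes that did not overlap.

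Tnfrsf17 encodes BCMA, a receptor for APRIL and BAFF that is best known from plasma cells. It had 1174, 1149, 1361 and 908 in male controls and 771, 692, 526 and 369 in males on PLX3397, and 939, 866, 1211 and 1002 in female controls and 1345, 1107, 1100.0 and 945 in females on PLX3397. Every library of males on PLX3397 lay below every library of the other groups, whose ranges overlapped one another. The mean fell from 1148 ± 186 to 589 ± 179 in males, 2.00-fold on the fitted scale (95% interval of the log2 change -1.44 to -0.56, limma adjusted p = 0.0040), and the change in females was 0.16 ± 0.208 (adjusted p = 0.779). On PLX3397, Tnfrsf17 was higher in females by 0.97 ± 0.208 (adjusted p = 0.0158), where 12.1% of all genes had groups that did not overlap. The difference between responses was 1.16 ± 0.294 (0.54 to 1.79), with an unadjusted p of 0.0011 and an adjusted p of 0.213.

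The fall of Tnfrsf17 in males and its difference between the sexes on PLX3397 held without any 1 library, with adjusted p-values up to 0.0163 and 0.0465. The difference between the sexes was lost when library totals were made equal (0.77, adjusted p = 0.0628), when the 2 groups were fitted alone (0.0942) and without the pair of libraries that stood apart (0.0512). Of 14 B and plasma cell markers, Mzb1, Pou2af1 and Blk were at 0 in all 16 libraries, Igkc did not exceed 3.70, and Ighm made up most of their sum. That sum ran from 23659 to 29331 in male controls, 16905 to 17844 in males on PLX3397, 25633 to 31193 in female controls and 18689.6 to 21887 in females on PLX3397. The sum was thus lower on PLX3397 in females too, where Tnfrsf17 ran from 945 to 1345. Of 7 of these markers tested, Ighm alone was called in each sex, 14.3% beside 11.7% of all genes in males and 5.34% in females. Ighm was lower on PLX3397, with log2 changes of -0.65 in males and -0.51 in females. In males Cd79a (0.45), Derl3 (0.45), Jchain (0.25) and Ms4a1 (0.15) had changes above 0 that did not pass the test. Cd79b (-0.39, from a mean of 1795 to 1388) and Fcrla (-0.14) had changes below 0 that did not pass it either. The part of B cell RNA in the values of Tnfrsf17 was not tested.

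Tnfrsf13b encodes TACI, the other receptor shared by BAFF and APRIL. It had 6872, 6617, 7069 and 7076 in male controls and 1930.0, 2613, 2540.1 and 3174 in males on PLX3397. It had 7444, 6946, 6342 and 6028 in female controls and 3604, 2939, 3495 and 2425 in females on PLX3397. The fall was -1.45 ± 0.145 in males (limma adjusted p = 5.79e-06) and -1.12 ± 0.145 in females (adjusted p = 0.000166), with groups that did not overlap. The difference between these falls was 0.34 (adjusted p = 0.606).

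Tnfrsf11a encodes RANK. Its counts were 5476, 5557, 4052 and 4841 in male controls and 3055, 3190.3, 3483 and 3404 in males on PLX3397. They were 5884, 5867, 5873 and 5704 in female controls and 6202, 5195, 5939.9 and 4251 in females on PLX3397. Males on PLX3397 lay below all other libraries. Female controls lay above all male controls, by 0.24 ± 0.121 (limma adjusted p = 0.976). The mean fell from 4981 ± 697 to 3283 ± 196 in males, 1.51-fold on the fitted scale, a log2 change of -0.59 ± 0.121 (adjusted p = 0.00367). In females the means were 5832 ± 85.8 and 5397 ± 875, a change of -0.13 ± 0.121 (adjusted p = 0.681). On PLX3397, Tnfrsf11a was higher in females by 0.70 ± 0.121 (adjusted p = 0.00653). The difference between responses was 0.47 ± 0.172 (0.10 to 0.83, unadjusted p = 0.0154, adjusted p = 0.355).

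The male fall and the difference between the sexes on PLX3397 held for Tnfrsf11a without any 1 library (adjusted p up to 0.0171 and 0.0229), and the latter was lost when the 2 groups were fitted alone (0.0644). All 10 microglia markers fell in males on PLX3397, beside 7.52% of all genes. On PLX3397, 9 of the 10 were higher in females than in males, beside 4.28% of all genes. In females, 8 of these 10 markers fell on PLX3397, beside 2.67% of all genes. Neither Tnfrsf11a nor Tnfrsf17 passed the test in females. Of the markers of border-associated macrophages, 7 of 11 fell in males and 5 of 11 in females, beside 7.52% and 2.67% of all genes. Their median log2 change was -2.78 in males and -2.51 in females. Their sum, most of it Stab1, was 26258 to 29683 in male controls, 19607 to 23987 in males on PLX3397, 27688 to 34150.3 in female controls and 19815 to 23090.3 in females on PLX3397. None of the 11 was called between the sexes on PLX3397. The part of either marker loss in the values of Tnfrsf11a, Tnfrsf17 and Tnfrsf13b was not tested. Tnfsf11, which encodes the RANK ligand, and Tnfrsf11b, the decoy receptor for it, were listed at 0 in all 16 libraries.

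**Figure D3:**
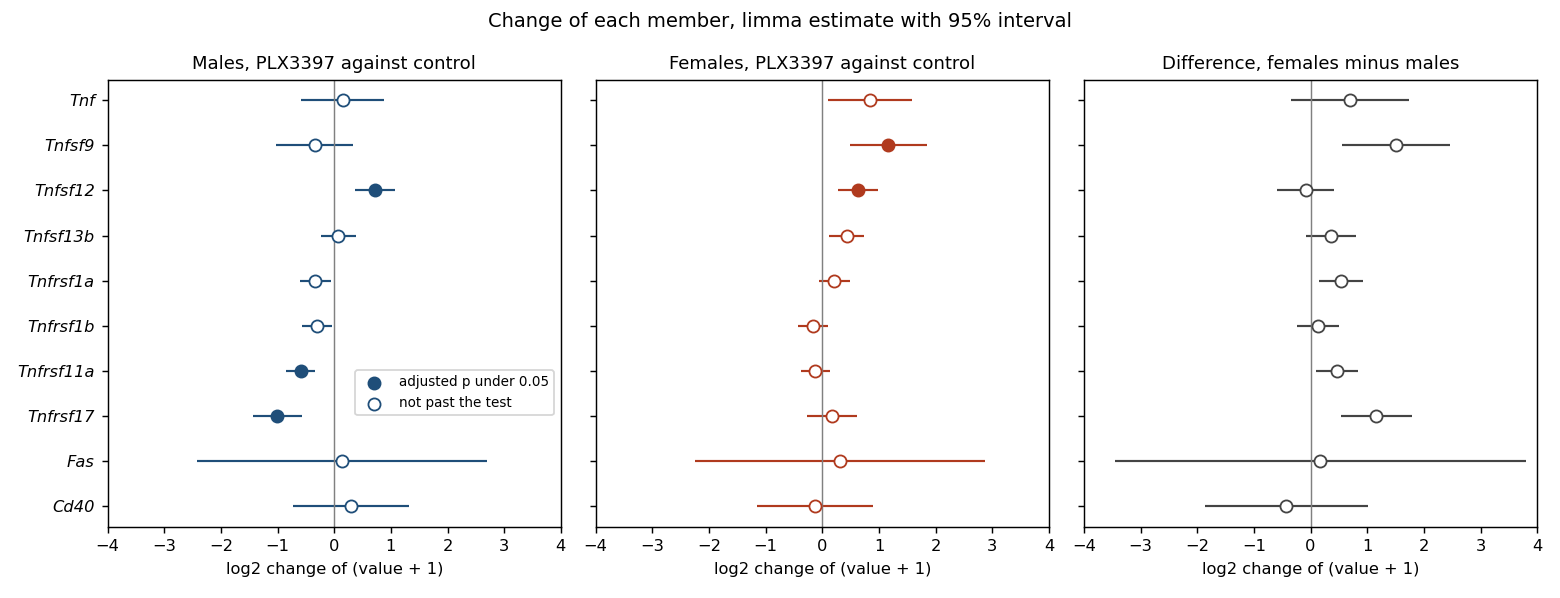
Log2 change of (value + 1) for each of the 10 genes with its 95% interval from limma, for PLX3397 against control in males and in females and for the difference between these responses; filled points had an adjusted p under 0.05. Tnfsf12 is filled in both sexes, Tnfrsf11a and Tnfrsf17 in males, Tnfsf9 in females, and none in the difference; the intervals of Fas are the widest of the 10.

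Neither receptor for TNF itself passed the test in any comparison. Tnfrsf1a encodes TNFR1, the death domain receptor. It had 10080.3, 10245, 9738 and 8702 in male controls and 8877, 6059, 7204 and 8958 in males on PLX3397, and 10347, 7328, 9789 and 8779 in female controls and 10497, 11029, 9182 and 10899 in females on PLX3397. On PLX3397 every female library lay above every male library, by 0.43 ± 0.130 (limma adjusted p = 0.0618). This missed the threshold with all libraries and passed without male PLX3397 replicate 1 (0.0433) or 4 (0.0367) or female control replicate 2 (0.0469). The change was -0.33 ± 0.130 in males (adjusted p = 0.119) and 0.21 ± 0.130 in females (adjusted p = 0.468).

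Tnfrsf1b encodes TNFR2, which lacks a death domain. It had 25773, 25357, 25138 and 24382 in male controls and 24928, 15767, 20128 and 21872 in males on PLX3397. It had 27623, 24832, 30158 and 25465 in female controls and 22931, 23775, 20293 and 29442 in females on PLX3397. The PLX3397 groups were more spread than the male controls and overlapped with the controls in both sexes. The change was -0.30 ± 0.125 in males (limma adjusted p = 0.146) and -0.17 ± 0.125 in females (adjusted p = 0.546).

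Fas, a death receptor, was low and uneven. It had 154, 54.3, 90.1 and 0.782 in male controls and 122, 80.5, 64.7 and 2.08 in males on PLX3397, and 57.5, 55.5, 70.0 and 109 in female controls and 45.8, 77.4, 94.1 and 172 in females on PLX3397. One library in each male group was near 0, and its change in males was 0.14 ± 1.21 (SE, limma adjusted p = 0.970). Cd40, a receptor through which T cells activate antigen-presenting cells, ran from 89.9 to 251 in male controls, 125 to 247 in males on PLX3397, 72.9 to 469 in female controls and 103 to 217 in females on PLX3397. Its adjusted p-values over the 5 comparisons were between 0.775 and 0.997. The ligand genes Fasl and Cd40lg were listed at 0 in every library.

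No gene of the table had a different response in females and males by limma's adjusted p (0 of 19594, 0.0%), while 2010 (10.3%) had an unadjusted p under 0.05. Among the 10, unadjusted p-values under 0.05 belonged to Tnfrsf17, Tnfsf9, Tnfrsf1a (0.54 ± 0.184, unadjusted p = 0.0095, adjusted p = 0.317) and Tnfrsf11a, each with the higher change in females. A call in one sex alone, as for Tnfrsf11a, Tnfrsf17 and Tnfsf9, is thus not shown to be a difference between the sexes in the response.

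**Figure D4:**
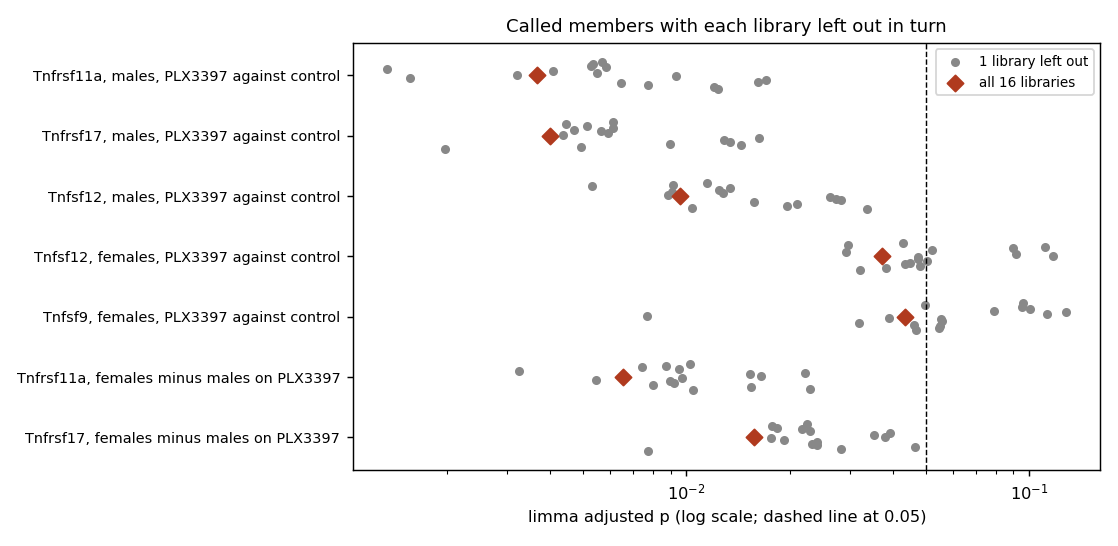
Adjusted p of the 7 calls among the 10 genes (log axis, dashed line at 0.05) with all 16 libraries (diamonds) and with each library left out in turn (grey points). The calls of Tnfrsf11a, Tnfrsf17 and Tnfsf12 in males and the differences on PLX3397 stay left of the line at up to 0.0465, and both female calls cross it, at up to 0.118 and 0.129.

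Other receptors of the superfamily numbered 22, of which 15 passed the filter on low values. In males 1 rose (Tnfrsf12a) and 2 fell (Tnfrsf13b and Tnfrsf21), and in females 1 rose and 1 fell (Tnfrsf12a and Tnfrsf13b), so 3 and 2 of 15 were called, beside 11.7% and 5.34% of all genes. Tnfrsf21, which encodes the death receptor DR6, had 20253, 19507, 19409 and 20395 in male controls and 13032, 9829, 11499 and 13873 in males on PLX3397. It had 21776, 19319.6, 23265 and 18887 in female controls and 17116, 16769, 14634 and 18708 in females on PLX3397. It fell by 0.73 on the log2 scale in males (limma adjusted p = 0.000187), and its change in females was -0.31 (adjusted p = 0.115). On PLX3397 it was higher in females by 0.49 (adjusted p = 0.0169), and this was lost without male PLX3397 replicate 2 (0.0555) and with each of 3 other scalings (0.0517 to 0.061). Of 14 other ligands 5 were tested, none was called in any comparison, and 5 were at 0 in all 16 libraries. Ltb, which encodes lymphotoxin beta, had means of 446 to 599.4 over the 4 groups, and Tnfsf10, which encodes TRAIL, 321 to 439.7.

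Downstream, the 33 adaptors, kinases and ubiquitin enzymes that act near the receptors were all tested. In males 4 rose (Tradd, Traf1, Ikbkb and Tnip2) and 3 fell (Casp8, Tab1 and Ripk3). In females 1 rose (Tradd) and 2 fell (Casp8 and Tab1). The calls were 21.2% of the list in males and 9.09% in females, beside 11.7% and 5.34% of all genes tested. The list's median change was 0.04 in males and 0.09 in females, and 3 of the 33 were called in males without the pair of libraries that stood apart. Casp8, the caspase that starts death from these receptors, fell by 0.77 ± 0.093 on the log2 scale in males (limma adjusted p = 3.81e-05) and by 0.41 ± 0.093 in females (adjusted p = 0.0139, and 0.0501 without female control replicate 3). Tab1, a partner of the kinase TAK1, fell by 0.80 ± 0.203 in males (adjusted p = 0.0157) and by 1.28 ± 0.203 in females (adjusted p = 0.000947). Tradd, the first adaptor at TNFR1, rose by 0.88 ± 0.131 in females (adjusted p = 0.000536).

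The male rise of Tradd (0.43, limma adjusted p = 0.0437) held without male control replicate 4, female PLX3397 replicate 2 or 4 or female control replicate 1 or 4. It ended without any other single library, at up to 0.146 without male control replicate 1. In males Ikbkb, the kinase IKKbeta, rose by 0.44 ± 0.097 (adjusted p = 0.00602) and Tnip2, an inhibitor of NF-kB activation, by 0.65 ± 0.144 (adjusted p = 0.00675). Traf1, an adaptor that is itself induced by NF-kB, went from 16.3 ± 6.57 to 145 ± 27.1 (adjusted p = 0.00687). Ripk3, a kinase of necroptosis, fell in males by 0.68 (adjusted p = 0.0493), which held without female PLX3397 replicate 3 or 4 or female control replicate 2 or 4. It ended without any other single library, at up to 0.139 without male control replicate 3. Traf1, Tnip2 and Ripk3 are outside the naming rule and were added after their values were seen, to complete the counts.

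Of 8 genes for the release of membrane TNF and its receptors, 1 was called in males, the protease gene Adam10, and none in females. This is 12.5% of the list in males, near the 11.7% of all genes tested. It fell by 0.94 ± 0.158 in males (limma adjusted p = 0.000743) and its change in females was -0.41 (adjusted p = 0.173). The higher level of Adam10 in females than in males on PLX3397 (0.66, adjusted p = 0.027) was lost without male PLX3397 replicate 2 (0.0945) or 3 (0.0842) or female PLX3397 replicate 2 (0.0575), 3 (0.0606) or 4 (0.0697). Adam17, the main TNF convertase, had changes of -0.17 and 0.01 (adjusted p = 0.428 and 0.985).

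Of 12 regulators of Tnf mRNA stability, Tia1, a translational silencer of Tnf mRNA, fell by 0.53 ± 0.123 in males (limma adjusted p = 0.00862) and 0.57 ± 0.123 in females (adjusted p = 0.00991). Elavl1, which encodes the RNA-binding protein HuR, fell in males by 0.47 (adjusted p = 0.0321), which was lost without male PLX3397 replicate 2 (0.105) or 3 (0.0645) or male control replicate 1 (0.0881) or 2 (0.0962). These were the 2 calls of the list in males and the 1 in females, 16.7% and 8.33% of it beside 11.7% and 5.34% of all genes tested. On PLX3397, Elavl1 was higher in females by 0.62 (adjusted p = 0.017, and 0.059 without male PLX3397 replicate 2), as was Hnrnpd by 0.55 (adjusted p = 0.0467), which held without male PLX3397 replicate 1, male control replicate 3 or female control replicate 2. The call of Hnrnpd ended without any other single library, at up to 0.127 without female PLX3397 replicate 3.

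Of 20 genes that TNF induces in many cells 19 were tested. In males 7 rose and 1 fell, and in females 10 rose and none fell, 42.1% and 52.6% of those tested beside 11.7% and 5.34% of all genes. The 1 that fell in males was Tnfaip8 (-0.48, limma adjusted p = 0.0203), named after its values were seen, and it was lost without male PLX3397 replicate 2 (0.0664) or 3 (0.0669) or male control replicate 1 (0.0523) or 3 (0.0646). The list's median change was 0.46 in males and 0.95 in females, beside 0.02 and -0.0032 over all genes tested. Il1b, a proinflammatory cytokine, went from 147 ± 69.9 to 1831 ± 443 in males (3.70 ± 0.393, limma adjusted p = 1.07e-05) and from 106 ± 65.1 to 1384 ± 207 in females (3.91 ± 0.393, adjusted p = 1.33e-05). Csf1, a ligand of the inhibited receptor, rose by 2.26 ± 0.277 in males (adjusted p = 4.43e-05) and by 2.14 ± 0.277 in females (adjusted p = 0.000167). Vcam1, an adhesion molecule, rose by 1.09 ± 0.233 and 1.70 ± 0.233 (adjusted p = 0.00498 and 0.000281). Bcl2a1b, a survival gene, rose by 1.29 ± 0.126 and 1.44 ± 0.126 (adjusted p = 5.03e-06 and 3.6e-06), a value that is uncertain because near-identical copies of the gene can share its reads.

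The 8 male calls of that list numbered 5 without male PLX3397 replicate 3, without male control replicate 3 and without the pair of libraries that stood apart. Of the neutrophil markers, 8 of 11 tested rose in males on PLX3397 and 6 of 11 in females. These were 72.7% and 54.5%, beside 4.16% and 2.67% of all genes that rose. The sum of all 12 was 36472 to 37619.7 in male controls, 49432 to 113995 in males on PLX3397, 29161 to 34164 in female controls and 24315 to 35564 in females on PLX3397, of which Csf3r alone made up 23269 to 41792 over the 16 libraries. Ly6g, Retnlg and S100a9 were at 0 in all female controls. Of the 11, 8 were lower in females than in males on PLX3397, 72.7% beside 5.43% of all genes. On control chow 5 were lower in females, 45.5% beside 0.0663% of all genes. On PLX3397 the median log2 difference, females minus males, was -4.22 over these markers and 0.25 over the list of TNF-induced genes. None of the 19 TNF-induced genes tested was called there. Monocyte markers summed to 380.1 to 798 in male controls and 1054 to 7225 in males on PLX3397, and to 425 to 549.6 in female controls and 267 to 656 in females on PLX3397, which overlapped. Of 6 monocyte markers tested, 1 rose in males (Hp), 16.7% beside 4.16% of all genes, and none was called in females. On PLX3397, 2 of the 6 were lower in females than in males, 33.3% beside 5.43% of all genes. The male sum was led by Chil3, which reached 4879 in 1 library on PLX3397, while the mean of Ccr2 was 283 in male controls and 165 in males on PLX3397 (adjusted p = 0.111). The part of neutrophil and monocyte RNA in these rises, and in the differences between the sexes on PLX3397, was not tested. The list was not chosen independently of earlier results of these data, and Tnf itself did not pass the test in either sex.

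**Figure D5:**
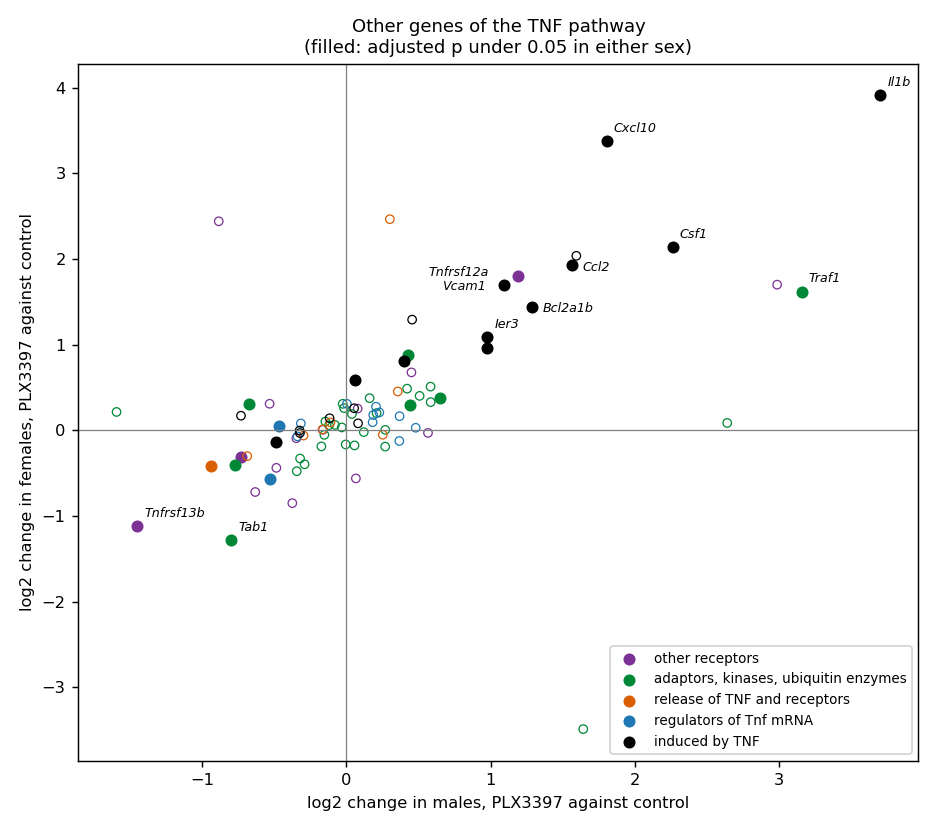
Log2 change in males (x axis) and in females (y axis), PLX3397 against control, for the tested genes of 5 lists around the TNF superfamily; filled points had an adjusted p under 0.05 in either sex, and names are given where a filled point exceeds 1 in either direction. Il1b lies at 3.70 and 3.91, Tnfrsf12a at 1.19 and 1.80, and Tnfrsf13b at -1.45 and -1.12.

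By the root mean square difference of centred log2 values over the 16 libraries, the gene closest in pattern to Tnfrsf17 was Zcchc10 (0.170, where Tnfrsf17 itself varied by 0.486). For Tnfrsf11a the closest 3 were Tysnd1 (0.132), Prcc (0.140) and Ppm1f (0.147), with a variation of 0.350 of its own. Those of Tnfsf12 were P2rx4 (0.134), Atp13a2 (0.141) and Pld2 (0.152), against 0.396. For Tnf the closest were Gm9830 (0.366), Fbxo46 (0.366) and Gm45731 (0.376), against 0.551. The scatter of Tnf within its groups adds to this distance, so whether a gene shared its pattern could not be judged from it.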

How the data were processed

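Total RNA was reverse transcribed and amplified from 500 pg with a SMARTer kit, and 150 pg of cDNA went into Nextera XT libraries, per the labels' protocols. STAR 2.7.9a, featureCounts 2.0.1, Salmon 1.5.2 and bcl2fastq 2.19.1, and the build GRCm39, are named in the submitters' processing notes without their order. Each value in the deposited table is a normalised signal, here called a normalised read count, whose formula is not given in the sources used here. Only 45.3% to 68.5% of a library's low values lay within 0.1 of a whole step, so reads were not recovered, no count model was used, and no counting interval was computed.

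Identifiers were matched to symbols in an Ensembl table of GRCm38 (51029 of 53850 matched). After the filter (at least 10 in 4 libraries or more), 19594 genes were fitted on log2(value + 1), which understates changes of low genes. The fit was limma 3.58.1 (R 4.3.3) with an intensity trend and 4 group means, and two-sided p-values were adjusted by Benjamini-Hochberg over all genes tested. No test was run over a list. The naming rule took the 10 genes, up to 4 called genes of each other list with the smallest adjusted p, and the 3 genes nearest in pattern to each of the 10; the text gives part of these and adds names where a count is small. A few of the genes the rule or the lists named are not reported here. The members and lists were chosen with earlier results of these data known. Alternatives were pseudocounts of 0.5 and 5, other filters and scalings, a fit to only the groups compared, array weights, the replicate number as a block, and leaving out single libraries. Leaving out a pair of libraries and summing the rows of the Tnfsf12 locus were added after seeing the data. The fit was tested on simulated data, and no libraries were identical.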

Additional observations from a re-analysis of the deposited data

Results flagged for a closer look

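In 5 of the 40 sets of 4 libraries (10 genes in 4 groups), 1 library lay far from the other 3, where chance alone marks about 1 set in 20. Tnf was high in female control replicate 3, at 377 against 150.5 to 168 in the other female controls. Tnf was also high in female PLX3397 replicate 3, at 474 against 318 to 338. Tnfsf9 was high in the same female control replicate 3, at 123 against 88.5 to 91.8. Tnfrsf11a was low in female control replicate 4, at 5704 against 5867 to 5884, a small distance in a tight group. Tnfsf12 was high in male control replicate 1, at 718 against 625 to 633, which was still below every male PLX3397 library. Without female control replicate 3 the change of Tnf in females was 1.15 (adjusted p = 0.0626), and that of Tnfsf9 stayed past the test (adjusted p = 0.0497).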

How the results depend on the processing

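Over 1345 alternative values of the 10 genes' changes, 1309 kept their side of the threshold, 28 lost a call, 8 gained one and none reversed a call, and 28 changed sign where neither value was called. In males 3 of the 10 genes were called, and 5 with array weights, which added Tnfrsf1a and Tnfrsf1b; leaving out each library in turn gave 3. In females 2 were called, 0 with a filter of any value above 0, with the groups compared alone and without the pair of libraries that stood apart, and 1 with quantile normalisation; leaving out each library gave 0 to 2. Between the sexes on PLX3397 the 2 calls became 1 with equal library totals and without that pair and 0 with the groups compared alone; leaving out each library gave 2 to 3. The causes were not tested. With the replicate number as a block, 1 of the 10 was called in females. Same-numbered samples deviated together in 1 of 24 pairs (correlations of deviations -0.0446 to 0.115). In 3 of the 24 pairs the sample with the same number was the best match in the other group, so the numbers were not taken as pairs. Equal library totals moved the median of all genes by 0.16 (log2) in males, and the falls of Tnfrsf11a and Tnfrsf17 were then -0.43 and -0.84. Over all genes, those called between the sexes on PLX3397 numbered 1064, and 571 with equal library totals, 606 with upper-quartile scaling, 467 with quantile normalisation, 44 with the groups compared alone and 339 without the pair. In males on PLX3397 they numbered 2289, and 1517 without that pair.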
